A study of Homo sapiens with 18 samples.

Results

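The genes described here encode the protein subunits of the mitochondrial ribosome. They were taken from the gene count table by name, as MRPL (large subunit) or MRPS (small subunit) followed by digits and at most one letter A, B or C. The rule found 76 of 33121 listed genes, 47 MRPL and 29 MRPS, and all 76 passed the filter on low counts, as did 13676 genes in all. The libraries came from RPE-1 cells, a human retinal pigment epithelial line immortalized with hTERT. The siRNAs were used over a 2-day transfection: siControl as the control, siMlx to deplete MLX, and siMondoA to deplete MLXIP, which encodes MondoA. Afterwards cells either had no drug, labelled untreated, or 150 ng/ml of the DNA-damaging agent doxorubicin (DXR) over 3 days. The 6 groups therefore were siControl, siMlx and siMondoA without DXR and the same 3 siRNAs with DXR, each with 3 poly(A)-selected RNA libraries. All cells carry hTERT and all were transfected, so no group shows untransfected cells. The library names carry the tag D0 in untreated and D5 in DXR groups, which the labels do not explain. A difference in harvest day and the drug therefore cannot be told apart.

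Mitochondria keep their own ribosome, which translates the few proteins encoded in mitochondrial DNA, all of them subunits of the oxidative phosphorylation complexes. Its proteins are all encoded in the nucleus, made in the cytosol and imported. Many descend from bacterial ribosomal proteins and others exist only in mitochondria. The large subunit holds the peptidyl transferase centre, the exit tunnel and flexible stalks that recruit translation factors, and the small subunit holds the decoding centre. MondoA is a transcription factor that responds to glucose metabolites and binds DNA as a dimer with Mlx. Whether the mRNAs of these subunits differ with either siRNA or with DXR is what the comparisons show.

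Total counts ran from 15503423 to 29219280 per library, and member genes took between 0.251% and 0.39% of them. The targeted genes followed the labels. MLXIP was at 63.7 to 72.9 CPM (library-scaled counts, after TMM scaling between libraries) with siControl and 3.34 to 4.57 CPM with siMondoA, and MLX was at 25.7 to 27.4 CPM with siControl and 6.79 to 7.12 CPM with siMlx. MLX was higher with siMondoA, at 47.2 to 52.1 CPM. Of 12 fixed markers of retinal pigment epithelium, 9 averaged under 1 CPM, among them RPE65 and BEST1, while MITF stood at 28.1 CPM and OTX2 at 16.2 CPM. The summed level of 4 epithelial markers was 516 to 699 CPM in siControl libraries and 1069 to 1145 CPM with siControl and DXR, carried by KRT8 and KRT18 with CDH1 and EPCAM averaging under 1 CPM. That of 8 fibroblast markers was 472 to 533 CPM and 702 to 787 CPM, and that of 8 blood and endothelial markers 4.77 to 6.81 CPM and 4.71 to 6.53 CPM. The retinal pigment epithelium sum was 58.2 to 64.4 CPM and 46.4 to 52.3 CPM. With siMlx in untreated cells the retinal pigment epithelium sum was 37.2 to 44.3 CPM, the epithelial sum 340 to 440 CPM, the fibroblast sum 460 to 588 CPM and the blood and endothelial sum 2.75 to 3.01 CPM. With siMondoA they were 57.4 to 71.1, 606 to 824, 406 to 450 and 2.89 to 4.26 CPM. The part of these marker changes in the results below was not tested. In bulk libraries, fewer cells of one kind and less RNA per cell cannot be told apart.

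Nearly all members were well expressed, and levels differed widely between them. On the RPKM scale, which divides by gene length and so allows levels of different genes to be compared, the median member stood at 25.4 in untreated siControl cells, with 29.8 for MRPL and 24.3 for MRPS genes. The median of all genes tested was 6.19, and 74 of 76 members lay above it. MRPL51 was the highest at 180 ± 13.2 RPKM (SD, n = 3), followed by MRPL12 at 86.7 ± 3.56, MRPS6 at 81.1 ± 5.1 and MRPS34 at 80.4 ± 4.58 RPKM. MRPS6 and MRPS34 differ by less than their spread. At the other end stood MRPS31 at 7.03 ± 1.21, MRPL22 at 6.34 ± 0.37, MRPS25 at 4.72 ± 0.254 and MRPS24 at 0.691 RPKM. MRPS24 had few counts in every library, its exons share 23.2% of their bases with the read-through gene URGCP-MRPS24, and its values are uncertain.

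The members are spread over 21 chromosomes, with 8 each on chromosomes 1 and 2. RefSeq promoter windows on GRCh38.p14, from 250 bases before to 50 after a gene's start, were matched for 67 members. Both strands were searched for 4 short motifs named after factors of nuclear genes for mitochondria and of MondoA. CCGGAAG (the ETS motif, read by GABP) was present for 29 of 67 members, or 43.3%, against 21.9% of the 9830 tested genes with a window and 12.2% of all 27305 genes with one. AAGATGGCG (YY1) was present for 13 members, or 19.4%, against 4.68% and 2.14%. GCGCNTGCG (NRF1) was present for 11 members, or 16.4%, against 17% and 9.01%. CACGTG (the E-box, the core of MondoA and Mlx sites) was present for 9 members, or 13.4%, against 12.5% and 8.77%. The last 3 letters of the ETS motif can be the first of the YY1 motif, and 0 of the 67 members held such an overlapping pair. At least one of the ETS, YY1 and NRF1 motifs was present for 43 members, or 64.2%, against 37.4% of the tested genes with a window. Letters in a window are a description and not a bound site.

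Stretches from 100 bases before to 30 after the RefSeq start are printed for 4 members on which the results below turn: MRPL3, which changed with both siMlx and DXR, MRPL17, whose response differed between the siRNAs, MRPS22, a small-subunit member that fell with DXR under every siRNA, and MRPS25, which rose with DXR. Capitals mark ETS motifs in MRPL3 and MRPS22 and NRF1 motifs in MRPL17, on either strand. MRPS25 holds none of the 4 motifs in this stretch. MRPS22 has other RefSeq starts, and their stretches, not printed here, hold 1 and 0 motifs. The printed stretches are examples and do not show whether motifs go with changes. MRPL3 lies at chr3:131502942-131503071 on the minus strand, MRPL17 at chr11:6683311-6683440 on the minus strand, MRPS22 at chr3:139343894-139344023 on the plus strand and MRPS25 at chr3:15065286-15065415 on the minus strand.
MRPL3: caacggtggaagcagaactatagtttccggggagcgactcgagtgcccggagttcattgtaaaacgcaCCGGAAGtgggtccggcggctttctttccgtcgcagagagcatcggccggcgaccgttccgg
MRPL17: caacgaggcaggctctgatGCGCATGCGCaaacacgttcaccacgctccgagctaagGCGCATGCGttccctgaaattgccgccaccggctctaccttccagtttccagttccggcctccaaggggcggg
MRPS22: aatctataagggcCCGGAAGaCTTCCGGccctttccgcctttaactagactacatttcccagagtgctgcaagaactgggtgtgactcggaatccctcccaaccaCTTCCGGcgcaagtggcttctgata
MRPS25: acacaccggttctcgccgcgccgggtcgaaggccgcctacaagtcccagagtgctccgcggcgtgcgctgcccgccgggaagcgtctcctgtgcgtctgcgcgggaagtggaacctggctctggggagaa

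The mRNAs of most mitochondrial ribosomal proteins were lower with DXR in siControl cells, in both subunits and by modest amounts. The summed level of MRPL genes was 2000, 2143 and 2160 CPM in the untreated libraries and 1722, 1770 and 1778 CPM with DXR. That of MRPS genes was 1105, 1166 and 1193 CPM untreated and 900, 937 and 901 CPM with DXR. Every DXR library lay below every untreated one in both sums, and the DXR means were 83.6% and 79% of the untreated means. By edgeR's quasi-likelihood test with an adjusted p under 0.05, 52 of 76 members fell (32 MRPL, 20 MRPS), where 28.6% of all genes tested fell. MRPS25 alone rose, where 28.1% of all genes tested rose. The median log2 fold change of the members was -0.26 (MRPL -0.24, MRPS -0.30) beside -0.01 over all genes tested, and no member changed 2-fold.

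**Figure D1:**
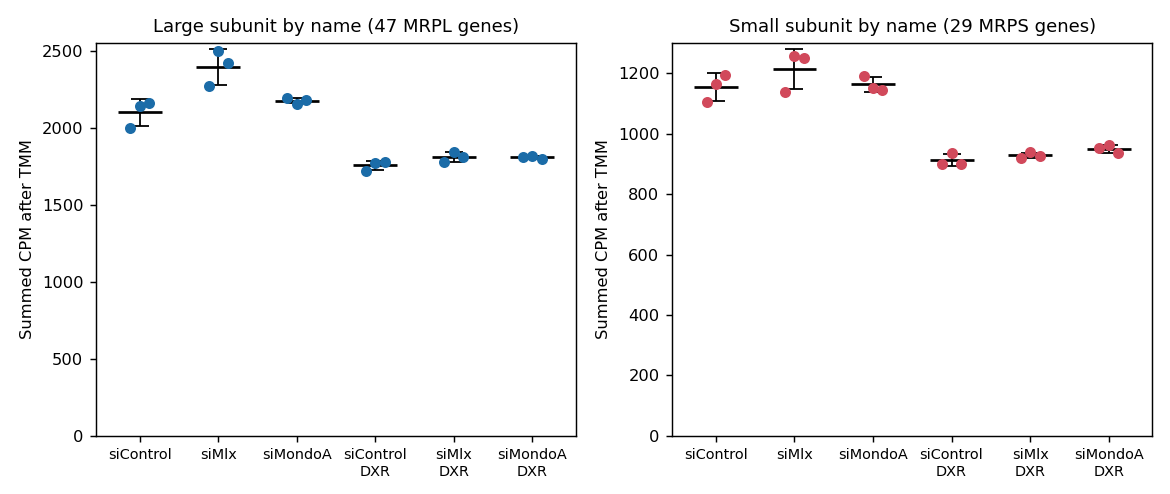
Summed CPM after TMM of the 47 MRPL genes (left) and 29 MRPS genes (right) in each of 18 libraries. Points are libraries, and lines with bars are the mean and SD of 3. All DXR libraries lie below all untreated libraries in both panels.

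The large-subunit members described next were picked by size of change or by role and stand for no structural group as a whole. MRPL3, which reaches towards the peptidyl transferase centre, stood at 120, 125 and 120 CPM untreated and 82.1, 79 and 81 CPM with DXR. The libraries within each group lay close together and the groups did not overlap (log2 fold change -0.59 ± 0.05 SE, adjusted p = 1.98e-08). MRPL1, of the stalk on the tRNA exit side, stood at 17.2, 17.5 and 16.4 CPM untreated and at 11, 10.3 and 9.78 CPM with DXR (-0.71 ± 0.09), the largest fall of an MRPL gene in this comparison. MRPL11, at the base of the factor-binding stalk, fell by 0.58, and MRPL12, whose copies form that stalk, fell by 0.48 on the log2 scale. MRPL12 shares 68.2% of its exon bases with an overlapping gene on the same strand, so that its counts are uncertain. MRPL10, which anchors the MRPL12 copies, was at -0.13 with an adjusted p of 0.0923 in the same edgeR fit, and MRPL2, of the peptidyl transferase region, was at -0.22 with an adjusted p of 0.0719 and overlapping libraries. MRPL15 (-0.55), MRPL13 (-0.58) and the mitochondria-specific MRPL53 (-0.60) also fell without overlap between libraries. MRPL53 shares 45.2% of its exon bases with CCDC142. Near the exit tunnel, MRPL22 (-0.49), MRPL23 (-0.49), MRPL24 (-0.44) and MRPL45 (-0.35), the last a protein that holds the ribosome to the inner membrane, fell. MRPL4, of the tunnel wall, was at -0.16 with an edgeR adjusted p of 0.0513.

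The lowest fold change of all members was that of MRPS31, a mitochondria-specific small-subunit protein. It was at 9.23, 7.64 and 10.6 CPM untreated and at 6.01, 5.53 and 4.65 CPM with DXR (-0.77 ± 0.12, edgeR adjusted p = 1.99e-05). The groups did not overlap, but its counts are rather few. The range of its untreated libraries was wider than the gap between the groups. MRPS6, a bacterial-type protein of the small subunit's platform, stood at 77.8, 74.3 and 82.5 CPM untreated and at 45, 55.4 and 40.9 CPM with DXR (-0.73 ± 0.12). MRPS28, related to bacterial S1, fell by 0.73, with 35.8% of its exon bases shared with another gene on its strand. MRPS27 (-0.56), MRPS15 (-0.53), MRPS34 (-0.50) and MRPS22 (-0.43) fell as well. MRPS22 stood at 41.4, 41.3 and 39.2 CPM untreated and 31.2, 30.3 and 28.8 CPM with DXR, with no overlap. MRPS12, the protein of the decoding centre, was at 28.1, 35.2 and 30.9 CPM untreated and 28.9, 30.5 and 31.6 CPM with DXR. Its groups overlapped and its fold change of -0.04 ± 0.08 did not pass the test. MRPS25 went the other way, from 20.7, 20.5 and 22.1 CPM to 25, 27.2 and 26.4 CPM (0.31 ± 0.06, adjusted p = 3.29e-04). On the opposite strand, 22.2% of the exon bases of MRPS25 overlap NR2C2, and whether counting used strand is not given in the sources used here.

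**Figure D2:**
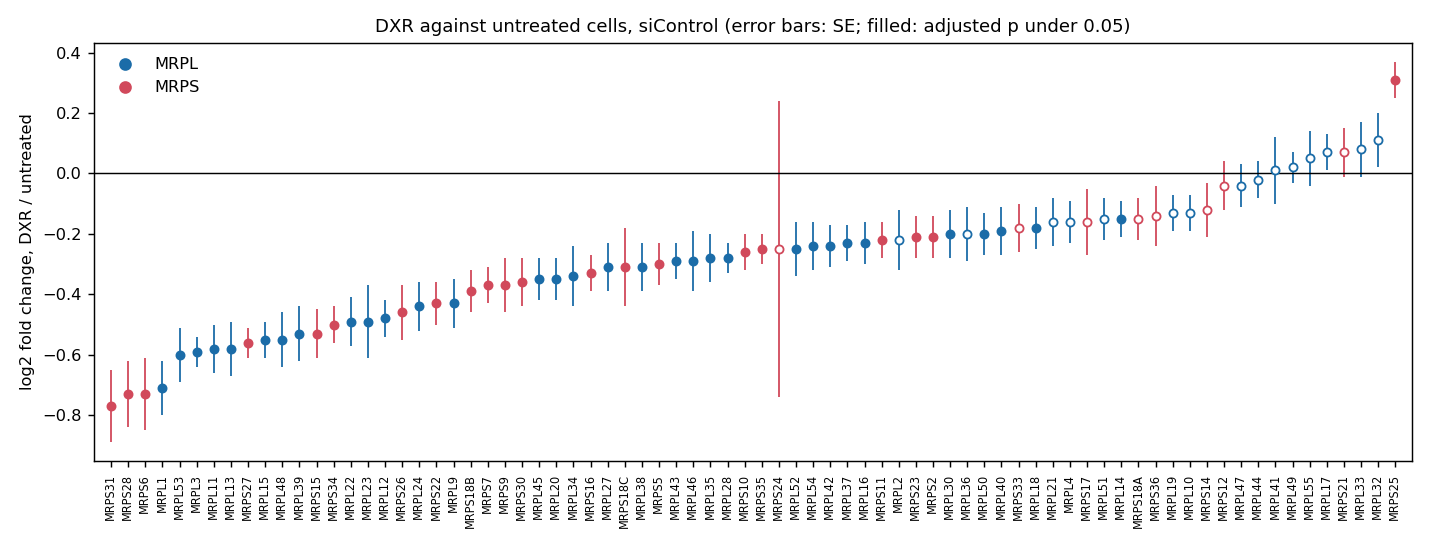
Log2 fold change of each of the 76 members, DXR against untreated siControl cells, ordered by value. Bars are the SE of the edgeR fit, filled points passed an adjusted p of 0.05, and MRPS24 has a far wider bar than any other member. From MRPS31 at -0.77 the values run through a broad middle to MRPS25 at 0.31, with both subunits mixed along the order.

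Members were also divided by the origin of their proteins. Of 48 members with a bacterial homologue 31 fell, with a median of -0.27, and of 27 members specific to mitochondria 21 fell, with a median of -0.25. These counts, and those by structure below, stand beside the 28.6% of all genes tested that fell with DXR in siControl cells. MRPS36, now assigned to the 2-oxoglutarate dehydrogenase complex rather than to the ribosome, is counted in neither group and was at -0.14 ± 0.10. Counting MRPS18A and MRPS30 with the large subunit, where structures place them, and leaving out MRPS36 gave 33 of 49 and 19 of 26 lower. The 3 paralogues of bacterial S18 differed in size, with MRPS18B at -0.39, MRPS18C at -0.31 and MRPS18A at -0.15, the last not past the test. Members with the ETS motif had a median of -0.26 and those without it -0.25, the NRF1 motif gave -0.31 and -0.25, the YY1 motif -0.25 and -0.27, and the E-box -0.21 and -0.27. None of these differences was tested.

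Most members were also lower with DXR under siMondoA and siMlx. With siMondoA, 55 members were lower with DXR than without it (34 MRPL, 21 MRPS; background 28%) and 3 were higher (background 26.2%), with a median of -0.26. With siMlx, 61 were lower (37 MRPL, 24 MRPS; background 31.2%) and MRPS25 was higher (background 30.9%), with a median of -0.36. Whether these DXR effects differ from that with siControl is tested by the interaction terms given further down. These comparisons and that with siControl use different libraries. Fully 43 members, or 56.6% (24 MRPL, 19 MRPS), were lower in all 3, where 17.1% of genes tested were (36 to 44 members over fits that left out 1 library), and MRPS25 was higher in all 3, where 17.1% of genes tested were. The value of MRPS25 with siMlx (0.17, adjusted p = 0.0237) lost its call without siMlx replicate 1 (adjusted p = 0.0954) or siMlx DXR replicate 3 (adjusted p = 0.0711). The fold changes lay below 0 in all 3 comparisons for 65 members. Across the 76 members, the log2 fold changes with siControl had a Pearson r of 0.82 with those under siMondoA and 0.788 with those under siMlx. Over all genes tested these were 0.836 and 0.867. Members are not independent of each other, so these values are descriptive.

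**Figure D3:**
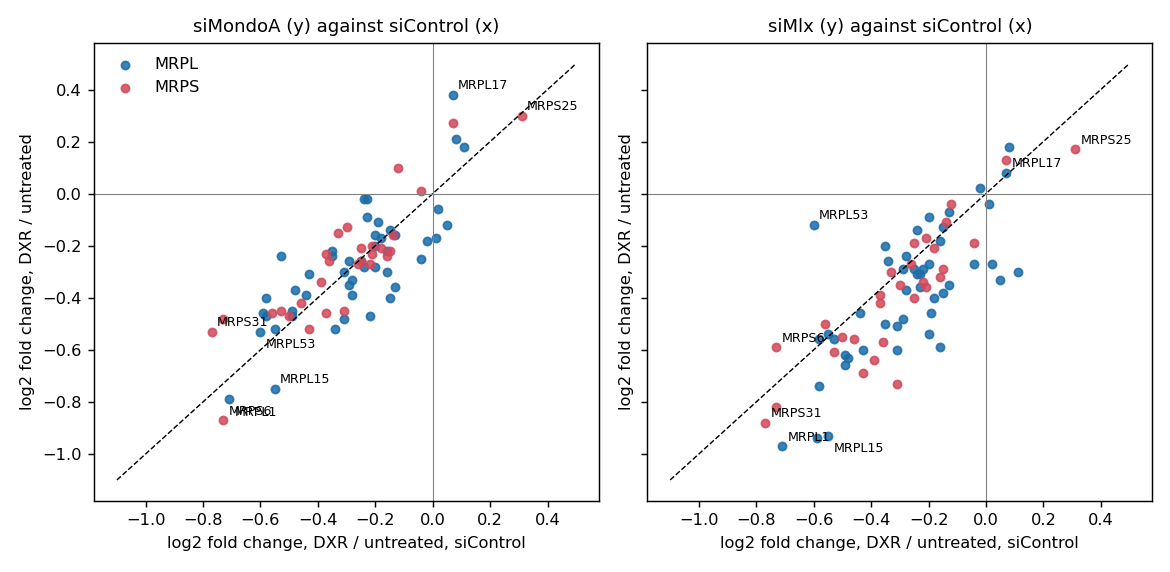
Log2 fold change with DXR under siMondoA (left) and siMlx (right) against that under siControl, 1 point per member, with the dashed line marking equal change. Most points lie at the lower left of both panels, and under siMlx many lie below the line (median -0.36 against -0.26), with MRPL53 well above it.

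The largest falls with siMlx and DXR were MRPL1 (-0.97 ± 0.10), MRPL3 (-0.94 ± 0.05), MRPL15 (-0.93 ± 0.06), MRPS31 (-0.88 ± 0.12) and MRPS28 (-0.82 ± 0.11). With siMondoA the largest were MRPS6 (-0.87 ± 0.12), MRPL1 (-0.79 ± 0.09) and MRPL15 (-0.75 ± 0.07). The 3 members higher with siMondoA and DXR were MRPL17 (0.38 ± 0.06), MRPS25 (0.30 ± 0.06) and MRPS21 (0.27 ± 0.08). A small set was past the test in none of the 3 DXR comparisons: MRPL33, MRPL41, MRPS14, MRPS24 and MRPS36. MRPL33 was one of 2 members, with MRPS24, that passed in none of the 11 comparisons made. Its libraries ran from 27.1 to 39 CPM across all groups.

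In untreated cells, more members were higher with siMlx than were lower, by 21 against 4 in the large subunit and 7 against 1 in the small one. The summed MRPL level was 2272, 2501 and 2423 CPM with siMlx against 2000, 2143 and 2160 CPM with siControl, without overlap, and its mean was 114% of the control's. The summed MRPS level was 1138, 1258 and 1249 CPM against 1105, 1166 and 1193 CPM, which overlapped. By edgeR, 28 members were higher (21 MRPL, 7 MRPS; background 24.9%) and 5 were lower (4 MRPL, 1 MRPS; background 23%). The median was 0.12 (MRPL 0.17, MRPS 0.09) beside 0.02 over all genes tested. Without siMlx replicate 1 the member median was 0.17, and over all fits that left out 1 library it was 0.08 to 0.17. Over those fits 19 to 30 members were higher and 4 to 7 lower, and the fewest higher came close to the background share. The 7 of 29 MRPS genes higher are also near that share. Of 30 large-subunit members with a bacterial homologue 17 rose, with a median of 0.24, and of 17 specific to mitochondria 4 rose, with a median of 0.09. The difference between these groups was not tested.

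Among members past the test, MRPL4, a protein of the exit tunnel wall, changed most. It stood at 53.4, 56.2 and 56.9 CPM with siControl and 89, 97.7 and 82.7 CPM with siMlx (0.70 ± 0.07, edgeR adjusted p = 6.24e-08), so that its groups lay far apart. On the opposite strand, 21.4% of its exon bases overlap other genes. MRPL15 stood at 81, 84.3 and 89 CPM and at 113, 126 and 132 CPM (0.54 ± 0.06), and MRPL51, the most abundant member, at 110, 121 and 125 CPM and at 159, 173 and 183 CPM (0.53 ± 0.07). Both were higher in every siMlx library. On the opposite strand, NCAPD2 overlaps 31.3% of the exon bases of MRPL51. MRPL41 (0.52), MRPL38 (0.51), MRPL3 (0.39) and MRPL12 (0.37) also rose without overlap, MRPL38 sharing 37.5% of its exon bases with a gene on the same strand. In the small subunit, MRPS26 (0.46), the decoding-centre protein MRPS12 (0.40) and MRPS35 (0.38) rose.

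The 5 members that fell with siMlx formed the other end. MRPL53 was at 22, 26.7 and 24.8 CPM with siControl and at 15.3, 16.9 and 15.5 CPM with siMlx (-0.62 ± 0.09, edgeR adjusted p = 1.46e-05). MRPL17, a bacterial-type protein of the large subunit, was at 69.4, 71.7 and 75.7 CPM and at 49.1, 51.6 and 51 CPM (-0.51 ± 0.06). MRPL35 was at 30.6, 28.4 and 30.2 CPM and at 20.3, 21.5 and 22.3 CPM (-0.48 ± 0.08). None of these overlapped between groups. MRPS6 fell by 0.51 on the log2 scale, and MRPL19 by 0.21. The call of MRPL19 was lost without siControl replicate 1 (adjusted p = 0.0918), siMlx replicate 1 (0.0696) or siMlx replicate 2 (0.0525).

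With siMondoA in untreated cells, the share of members higher was near that of all genes tested. The share lower was below that of all genes, and the median was near theirs. The summed levels were 2194, 2159 and 2180 CPM for MRPL, and 1191, 1152 and 1146 CPM for MRPS. The lowest MRPL value lay just under the highest siControl library, and all MRPS values lay inside the siControl range. Of 76 members, 20 were higher (14 MRPL, 6 MRPS; background 23.3%), and 6 were lower (4 MRPL, 2 MRPS; background 23.3%), with a median of 0.04 beside 0.02 for all genes tested. The number higher was 13 without siControl replicate 1, the siControl library with the lowest summed level, and 12 without the low-count filter. Within a condition, the siMlx and siMondoA comparisons share their siControl libraries and are not independent of each other. MRPL51 was higher here too, at 174, 164 and 166 CPM (0.50 ± 0.07, edgeR adjusted p = 6.91e-06). Next among members past the test came MRPS17 (0.41), MRPS31 (0.40), MRPL2 of the peptidyl transferase region (0.37), MRPL44 (0.36), MRPS18A (0.36) and MRPL41 (0.36). MRPS17 shares 27% of its exon bases with a gene on its strand, and 47% of those of MRPS18A overlap RSPH9 on the other strand. The call of MRPL41 was lost without siControl replicate 1 (adjusted p = 0.1).

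MRPL42, a mitochondria-specific protein, showed the largest fall with siMondoA. It stood at 63.4, 62.2 and 67.2 CPM with siControl, at 47.9, 42.5 and 40.2 CPM with siMondoA and at 62.5, 68.8 and 73.2 CPM with siMlx. The siMondoA libraries lay below all libraries of the other untreated groups (-0.56 ± 0.07 against siControl, adjusted p = 1.64e-06; -0.65 ± 0.07 against siMlx, adjusted p = 1.45e-07, both by edgeR). MRPS14 (-0.33), MRPL19 (-0.31), MRPL17 (-0.31), MRPL39 (-0.26) and MRPS16 (-0.22) fell too. The call of MRPL39 was lost without siControl replicate 3 (adjusted p = 0.138), without siMondoA replicate 2 (0.113) and with upper-quartile scaling (0.0546).

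**Figure D4:**
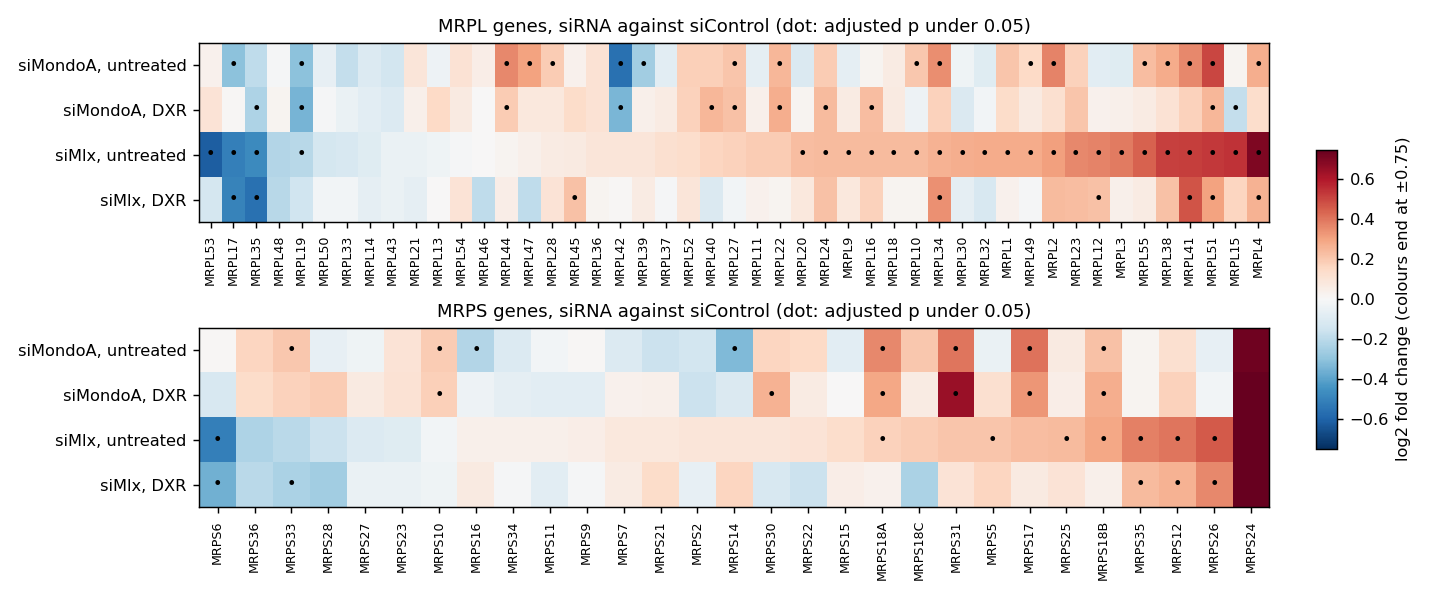
Log2 fold changes of each siRNA against siControl in untreated and DXR-treated cells for 47 MRPL genes (top) and 29 MRPS genes (bottom), ordered by the siMlx values in untreated cells. Red is higher, blue lower and dots mark an adjusted p under 0.05. The siMlx row in untreated cells holds the most red in the MRPL panel, with 21 higher, and MRPS24, beyond the colour scale in all but 1 comparison, carries no dot.

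With DXR present, counts of members past the test were lower than in untreated cells for both siRNAs, as were those of all genes. With siMondoA, 13 members were higher (7 MRPL, 6 MRPS; background 10.9%) and 4 were lower, all of them MRPL (background 13.9%), with a median of 0.06. The number higher depended on single libraries, at 4 without siControl DXR replicate 1, 6 without siControl DXR replicate 2, 7 without siControl DXR replicate 3, and 8, 6 and 7 without siMondoA DXR replicates 1, 2 and 3. The number lower was 2 without siControl DXR replicate 2, siControl DXR replicate 3 or siMondoA DXR replicate 3. With siMlx, 9 members were higher (6 MRPL, 3 MRPS; background 14%) and 4 lower (2 MRPL, 2 MRPS; background 16.2%), with a median of 0.02. That number lower was 2 without siControl DXR replicate 2, siMlx DXR replicate 1 or siMlx DXR replicate 3.

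Untreated and DXR-treated comparisons of one siRNA use different libraries. With siMondoA, 9 members were higher in both (background 7.84%): MRPL22, MRPL27, MRPL44, MRPL51, MRPS10, MRPS17, MRPS18A, MRPS18B and MRPS31. That number was 3 without siControl DXR replicate 1, 4 without siMondoA DXR replicate 2 and 5 without siControl DXR replicate 2 or 3, and MRPS18A and MRPS31 remained in every fit that left out 1 library. MRPL19 and MRPL42 were lower in both (background 11.9%). With siMlx, 8 were higher in both (background 11%): MRPL4, MRPL12, MRPL34, MRPL41, MRPL51, MRPS12, MRPS26 and MRPS35. The calls of MRPL34 and MRPS12 were lost in some fits that left out 1 library. MRPL17, MRPL35 and MRPS6 were lower in both (background 12.1%), MRPS6 not without siControl DXR replicate 2, siMlx DXR replicate 1 or siMlx DXR replicate 3. Across members, Pearson r between the untreated and the DXR-treated fold changes was 0.782 for siMondoA and 0.809 for siMlx, and 0.641 and 0.67 over all genes tested. By ranks (Spearman rho) the values were 0.764 and 0.714 for members, and 0.645 for either siRNA over all genes tested. The members here include MRPS24, whose values are uncertain. MRPS31 showed the largest siMondoA difference with DXR among members past the test, at 8.48, 7.9 and 8.98 CPM against 6.01, 5.53 and 4.65 CPM with siControl (0.65 ± 0.13, edgeR adjusted p = 6.80e-04). MRPL35 showed the largest siMlx difference in the other direction, at 16.6, 17.1 and 16.1 CPM against 25.6, 24.1 and 23.5 CPM (-0.56 ± 0.08, edgeR adjusted p = 3.05e-05).

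Set directly against each other, the knockdowns differed in a number of members. In untreated cells, 12 were higher with siMondoA than with siMlx (6 MRPL, 6 MRPS; background 28.5%) and 27 were lower (15 MRPL, 12 MRPS; background 30.4%), with a median of -0.06. The number lower was 16 without siMlx replicate 2. The largest differences were MRPL42 (-0.65), MRPL53 (0.64), MRPL15 (-0.52), MRPS26 (-0.52), MRPS6 (0.52) and MRPL3 (-0.48). With DXR, 15 were higher (6 MRPL, 9 MRPS; background 18.9%) and 8 lower (5 MRPL, 3 MRPS; background 20%), with a median of 0.00. The number lower was 5 without siMlx DXR replicate 1. MRPS31 (0.55), MRPL17 (0.51) and MRPS28 (0.44) stood highest in siMondoA, and MRPS26 (-0.38), MRPL15 (-0.35) and MRPL42 (-0.35) lowest.

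**Figure D5:**
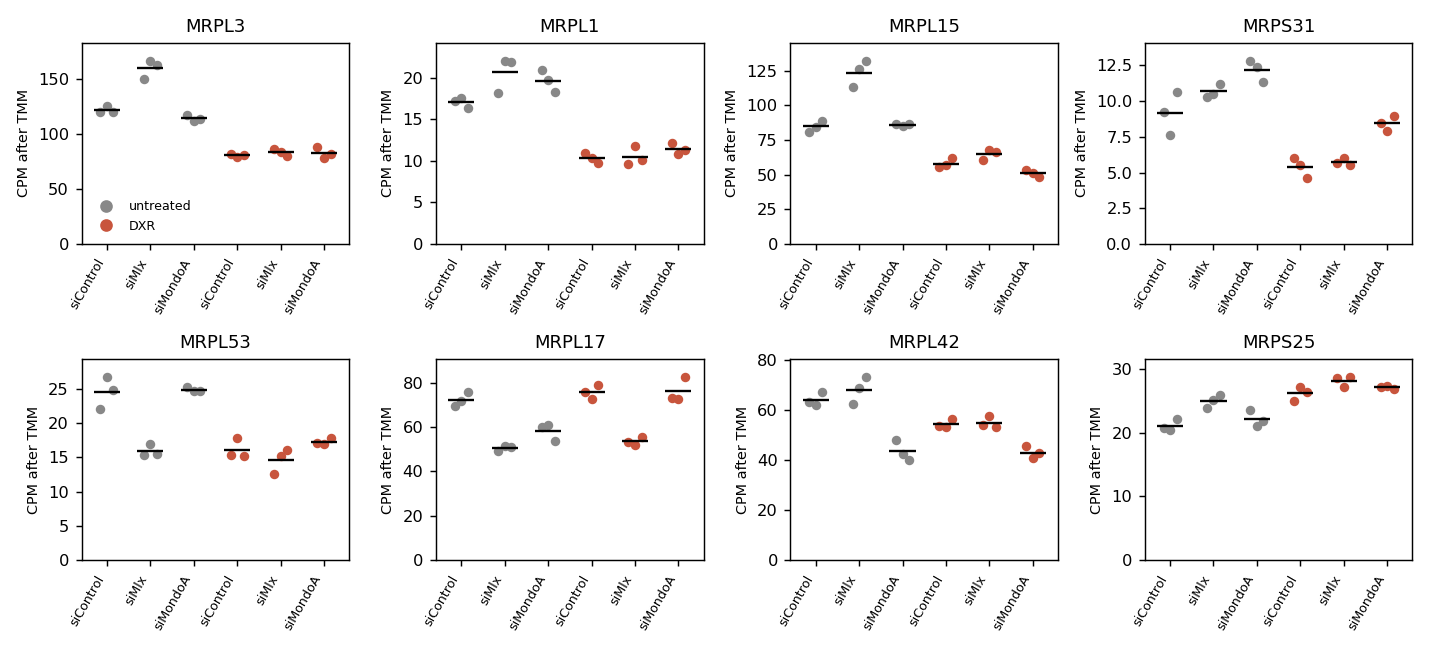
CPM after TMM of 8 members in all 18 libraries. Grey points are untreated and orange points DXR libraries, lines are means of 3, and every axis starts at 0. MRPL3, MRPL1, MRPL15 and MRPS31 are lower with DXR under each siRNA, MRPL42 is low in both siMondoA groups, MRPL17 is low in both siMlx groups, and MRPS25 is higher with DXR.

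Whether a knockdown effect differed between untreated and DXR-treated cells was tested by the interaction term. The tags D0 and D5 follow the drug. A difference in harvest day, and so in time since transfection, therefore cannot be told apart from DXR in this term. The same holds where knockdown results with DXR are set beside untreated ones. For siMondoA, MRPL17 was the only member past the test, in the higher direction (background 5.84%), and none was in the lower direction (background 4.28%). At an unadjusted p under 0.05 there were 5 higher and 4 lower, and DESeq2 gave 1 and 0. MRPL17 was at 60.2, 61 and 53.5 CPM with siMondoA in untreated cells, below all siControl libraries, and at 73, 72.8 and 82.4 CPM with siMondoA and DXR, within reach of the 75.7, 72.6 and 78.9 CPM of siControl and DXR (interaction 0.32 ± 0.09, edgeR adjusted p = 0.0271). With siMlx it stayed low under DXR, at 53.1, 51.8 and 55.5 CPM. For siMlx, 1 member was past the interaction test in the higher direction (MRPL53, background 6.43%) and 5 in the lower direction (MRPL3, MRPL4, MRPL15, MRPL32 and MRPL49, background 5.81%), all in the large subunit. The number lower was 2 without siMlx DXR replicate 1. Out of 76 members, the number lower is near the background share and the number higher is below it. At an unadjusted p under 0.05 by edgeR there were 1 higher and 17 lower, 4 of the latter MRPS genes. MRPL3 was at 150, 166 and 162 CPM with siMlx in untreated cells, above all siControl libraries, and at 86.1, 83.7 and 79.9 CPM with siMlx and DXR, level with the 82.1, 79 and 81 CPM of siControl and DXR (interaction -0.34 ± 0.08, edgeR adjusted p = 0.00506).

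Several other lists of the mitochondrial translation machinery held more lower than higher genes with DXR in siControl cells, and the cytosolic ribosomal proteins had a median near 0. Of 8 other mitoribosome proteins 5 fell and none rose (median -0.34), led by ICT1 (-0.64), a peptidyl-tRNA hydrolase built into the large subunit. Of 14 translation factors 9 fell and none rose (median -0.31), among them the initiation factor MTIF2 (-0.52) and the recycling factor MRRF (-0.43). Of 29 genes for mitoribosome assembly and rRNA modification 20 fell and 3 rose (median -0.32), with FASTKD2 at -0.44 and the protease subunit SPG7 at 0.56. Of 20 mitochondrial tRNA synthetases and related genes 10 fell and 1 rose (median -0.18). In mitochondrial transcription and RNA stability, 3 of 15 fell and 1 rose (median -0.05), with TFAM, which packages mitochondrial DNA and starts its transcription, at -0.61 and the nuclease PNPT1 at 1.12. Of 79 cytosolic ribosomal proteins 19 fell and 9 rose (median -0.03), and of 76 nuclear-encoded subunits of oxidative phosphorylation 28 fell and 15 rose (median -0.09). All these counts stand beside the 28.6% lower and 28.1% higher of all genes tested.

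With siMlx in untreated cells, 14 of the 29 assembly and rRNA modification genes rose and 1 fell (median 0.19), and 8 of the 15 transcription and RNA stability genes rose and 1 fell (median 0.18), with SLIRP at 0.60 and LRPPRC at 0.47. Translation factors split, with 5 of 14 higher and 2 lower, and the GTPase GFM2, which acts in ribosome recycling, had the largest fall of the list. It was at 30.5, 30.7 and 30 CPM with siControl and at 12, 12.8 and 12.5 CPM with siMlx (-1.29 ± 0.06, edgeR adjusted p = 3.08e-12). Of 79 cytosolic ribosomal proteins 21 were higher, or 26.6%, and 3 lower (median 0.10). Of all genes tested, 24.9% were higher and 23% lower in this comparison. With siMondoA, 9 of the 29 assembly genes rose and 6 fell, with the ribosome-binding factor RBFA at -0.84, and 1 of 79 cytosolic ribosomal proteins rose and 2 fell. The assembly genes' shares of 31% and 20.7% stand beside 23.3% of all genes tested in each direction.

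Of 10 regulators of nuclear genes for mitochondria, 9 were tested, since PPARGC1A had too few counts. With DXR in siControl cells NRF1 (-0.55 ± 0.09), GABPA (-0.28 ± 0.07) and GABPB1 (-0.29 ± 0.08) were lower and MYC (0.17 ± 0.07) was higher by edgeR's test. With DXR under siMlx, NRF1 (-0.72), GABPB1 (-0.70) and PPRC1 (-0.49) were lower, and GABPA (0.03) was not past the test. With DXR under siMondoA, GABPA (-0.36), ESRRA (-0.32) and NRF1 (-0.28) were lower and MYC (0.49) was higher. GABPB1 (0.06) was not past the test there. With siMondoA in untreated cells NRF1 (-0.56), MYC (-0.57), GABPB1 (-0.50) and PPRC1 (-0.23) were lower and GABPB2 (0.53) was higher. With siMlx GABPA, the DNA-binding subunit of GABP, was lower (-1.06 ± 0.08), as was ESRRA (-0.35), while MYC (0.51), PPRC1 (0.46), GABPB1 (0.43) and YY1 (0.32) were higher. Their part in the members' changes was not tested.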

How the data were processed

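RNA libraries from 18 samples in 6 groups of 3, taken from the labels, were analysed from 2 deposited tables. The authors used bcl2fastq and, for alignment to GRCh38, TopHat2 2.1.1, per the submitters' processing notes. How reads were counted per gene, with which annotation and whether by strand, is not given in the sources used here. The authors deposited read counts per gene, and for the same libraries RPKM, which divide counts by gene length and mapped reads. No listed gene is named as mitochondrially encoded. Total counts were 15503423 to 29219280 per library, and 74 members had at least 100 counts in every library, the exceptions being MRPS31 (at least 97) and MRPS24.

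Counts were fitted with edgeR 4.0.16 in R 4.3.3 (filterByExpr by group, TMM, 1 mean per group over all libraries, 12 residual degrees of freedom). The 11 contrasts were tested with the two-sided quasi-likelihood test and Benjamini-Hochberg adjustment over all 13676 genes tested, with a threshold of 0.05. SE belongs to the fitted log2 fold change. RPKM served for levels between genes. Summed levels are in CPM after TMM, with RPKM sums as an alternative. The steps were tested on simulated data. Separate cultures are not stated for the replicates, so the p-values cover the spread among the libraries, which may be technical.

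Members were named where they were past the threshold without overlap between libraries (up to 5 per subunit and direction with the largest fold change), where their RPKM was among the 3 highest or lowest of a subunit, or for their role. Further members are named after their values were seen, where they belong to a count given. Of other lists, up to 3 genes with the smallest p were named, and some after their values were seen. The members and lists were chosen with earlier results of these data known. Alternatives were DESeq2 1.42.0, scaling by RLE or the upper quartile, other low-count filters, fits of only the groups compared, a replicate block, each library left out, RPKM in place of CPM, and subunits by structure. The NRF1 and YY1 motifs were searched with 1 letter fewer than planned, a choice made after seeing the data. Exon overlaps and coordinates of genes come from GENCODE release 29. The labels name no batch. Besides D0 and D5, library names carry a number suffix that follows the replicate number in every group and is not explained, so a shared run or day per replicate number is neither stated nor excluded. The replicate block covers it.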

Additional observations from a re-analysis of the deposited data

Results flagged for a closer look

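For 7 members, all of the large subunit, the effect of a knockdown differed between untreated and DXR-treated cells by edgeR's interaction test. Of all genes tested, 5.84% were higher and 4.28% lower in the siMondoA term, and 6.43% and 5.81% in the siMlx term. Of 76 members, 1 was higher and 0 lower in the siMondoA term, and 1 and 5 in the siMlx term. These numbers are near or below the shares of all genes, so they mark no trait of the members as a set. At an unadjusted p under 0.05 by edgeR, 4 MRPS genes were also lower in the siMlx term. With siMondoA the member past the test was MRPL17. Its siMondoA effect was higher with DXR than without it by 0.32 on the log2 scale (-0.31 untreated, 0.01 with DXR). The call was lost without siControl replicate 3 (adjusted p = 0.0734), siMondoA replicate 3 (0.0666), siControl DXR replicate 2 (0.0513) or siMondoA DXR replicate 3 (0.0759).

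With siMlx the effect was more negative with DXR for MRPL4 (interaction -0.43, from 0.70 untreated to 0.26), MRPL32 (-0.41, from 0.28 to -0.12), MRPL15 (-0.38, from 0.54 to 0.16), MRPL3 (-0.34, from 0.39 to 0.04) and MRPL49 (-0.30, from 0.28 to -0.01). It was less negative with DXR for MRPL53 (0.48, from -0.62 to -0.13). MRPL3 and MRPL4 kept the call in every alternative run. MRPL15 lost it without siMlx DXR replicate 1 (adjusted p = 0.0534), and MRPL49 without siControl replicate 1 (0.0502), without siMlx DXR replicate 1 (0.0639) or with no low-count filter (0.0721). MRPL53 lost it without siControl replicate 2, siControl DXR replicate 1 or 3, or siMlx DXR replicate 2 or 3 (adjusted p 0.0543 to 0.0662). MRPL32 lost it in 7 of its leave-one-out fits (adjusted p 0.0565 to 0.109).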

How the results depend on the processing

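Of 555 alternative values of counts, medians and summed levels, 507 stayed within the spread or within 1.5 times the count. Of 1849 alternative values for 139 named pairs of gene and comparison, 131 lost the call, none reversed, and 34 pairs lost it at least once. The pairs include the targeted genes MLXIP and MLX, which are not members. For siMondoA against siControl untreated, 12 members were higher with no low-count filter, the median was 0.09 with upper-quartile scaling, and 13 to 22 were higher over fits that left out 1 library. For siMondoA against siControl with DXR, 7 were higher with no filter and 8 with only the groups compared, and 2 were lower with upper-quartile scaling, no filter, DESeq2 or only the groups compared. Leaving out 1 library gave 4 to 8 higher and 2 to 4 lower. For siMlx against siControl, the untreated median was 0.08 to 0.17 and 19 to 30 were higher over libraries left out. With DXR, 15 were higher and 2 lower with upper-quartile scaling, and 2 to 4 lower over libraries left out. Higher with DXR under siMlx were 0 with no filter and 0 to 2 over libraries left out. For siMondoA against siMlx, 16 to 29 were lower untreated and 5 to 7 with DXR over libraries left out, the latter 5 also with only the groups compared. The siMondoA interaction gave 0 to 1 higher, and that of siMlx 0 to 1 higher, 2 to 7 lower and a median of -0.13 to -0.03. Members higher in both conditions were 12 for siMondoA and 14 for siMlx with upper-quartile scaling, and 5 for siMondoA with no filter. The cause was not tested.

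With RPKM in place of CPM, summed levels as a percentage of untreated siControl were 111 for MRPL with siMondoA, 78.9 for MRPL and 72.5 for MRPS with siControl and DXR, and 72 and 76.4 for MRPS with siMlx and siMondoA and DXR. Upper-quartile scaling moved the share of higher among all genes called from 46.2% to 56.2% for siMlx with DXR and from 57.7% to 45.4% for the siMondoA interaction. No scaling moved the median of all genes by more than 0.05. The labels do not say that replicate numbers pair libraries, and not every same-numbered pair correlated over 0.1, so the numbers were not treated as pairs. Over 45 such pairs the correlation of deviations was -0.102 to 0.33, with a median of 0.0863 beside -0.0497 for other numbers and 21 over 0.1. As a hint from the data that the numbers share something, 14 of 18 libraries correlated best with their own number. With the replicate number as a block, 54 members were lower and 1 higher with DXR and siControl, 33 were higher with siMlx and 23 with siMondoA untreated, and no count moved by over 1.5 times. Depth limits MRPS24 above all, with a log2 SE of 0.49 for DXR and siControl.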

Other observations

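Of the names left out by the rule, MRPS31P5 held 652 counts and MRPL45P2 held 691 counts over all 18 libraries, with 17 to 58 and 16 to 60 counts per library. Both are named as copies of members, and reads from a member and its copy may not be separable. MRPL42P5 held 6 counts and MRPL23-AS1 held 2, and 8 further numbered copies of member names held 0.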
